A study of Mus musculus with 6 samples.

Results

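The complement C1q genes C1qa, C1qb and C1qc and 6 further genes used to recognise microglia, Trem2, Tyrobp, Aif1, Tmem119, P2ry12 and Csf1r, were examined in retinal RNA of mice treated with N-methyl-D-aspartate (NMDA). The 9 genes were chosen by name, and their rows were looked up by symbol in the per-library files of FPKM (fragments scaled to transcript length and sequencing depth). Of the 9 genes, 5 had a transcript listed for every library and a value above 0 in at least 1, and they are among the 25202 genes tested in all. All mice were wild-type C57BL/6 mice of post natal week 5 by the labels, and every retina had received intravitreal NMDA, a glutamate receptor agonist toxic to retinal ganglion cells. After 2 days, the NMDA + SCF group (3 libraries) received recombinant stem cell factor (SCF), the ligand of the receptor c-kit, and the NMDA + PBS group (3 libraries, labelled NMDA) received the same volume of PBS. Retinas were collected 1 week after the last injection. No untreated retina is among the libraries analysed here, and the number of mice behind a library is not given in the sources used here, so p-values measure the spread between these libraries only.

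Microglia are the resident macrophages of the retina. In the healthy tissue they are ramified and carry the purinergic receptor P2RY12 and the membrane protein TMEM119, and their survival depends on the receptor CSF1R. After neuronal injury they change shape, take up debris and increase genes of the TREM2 pathway, in which the lipid-sensing receptor TREM2 signals through the adaptor TYROBP. C1q is the recognition molecule of the classical complement pathway. It is built from A, B and C chains in equal parts, and in the nervous system microglia are its main source. The protein Iba1, the usual stain for retinal microglia, is the product of Aif1. The comparison of the groups asks whether the RNA of these genes differed after SCF. By staining, the study reported fewer activated microglia after SCF, with mainly ramified shapes. In co-culture with SCF-treated c-kit-positive cells, it reported less proliferation and pro-inflammatory expression of a microglial cell line. Neither experiment measured the RNA of these genes in retina.

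The C1q genes lie next to each other on the minus strand of chromosome 4 (GRCm38, positions 136880129 to 136898803, a stretch of 18.7 kb), with C1qc between C1qb and C1qa. The promoter sequences of C1qb and C1qc are shown because these neighbours are coregulated in macrophages by ETS factors such as PU.1, the product of Spi1, and because their values here lay far apart. They are RefSeq sequences (GRCm38.p6), cut to the bases upstream of both the RefSeq and the Ensembl start, 5′ to 3′ on the minus strand. Capitals mark the letters AGGAAGT, a core often bound by PU.1, which occur here on the opposite strand and so read ACTTCCT. C1qb covers chr4:136886201-136886450 and C1qc covers chr4:136893066-136893164.
C1qb: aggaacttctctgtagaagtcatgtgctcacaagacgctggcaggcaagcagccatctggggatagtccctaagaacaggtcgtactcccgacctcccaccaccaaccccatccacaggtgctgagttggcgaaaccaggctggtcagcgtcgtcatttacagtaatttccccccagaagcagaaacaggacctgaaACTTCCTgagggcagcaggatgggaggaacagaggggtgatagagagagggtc
C1qc: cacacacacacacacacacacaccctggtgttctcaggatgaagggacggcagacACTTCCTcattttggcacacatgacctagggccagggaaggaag
The match began 66 bases before the Ensembl start of C1qb and 44 bases before that of C1qc. From the RefSeq starts, the distances were 53 bases for C1qb and 195 bases for C1qc. On either strand, 9.35% of 32851 promoters of 300 bases held these 7 letters. Of the other genes with a promoter in the table, P2ry12 held them and Aif1 and Trem2 did not, and a match or its absence is a description of the letters only.

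The transcripts that could be read decided which of the genes could be measured. Transcripts came in 2 lists, list A for the 3 NMDA + SCF libraries and NMDA + PBS replicate 1, and list B for replicates 2 and 3 of NMDA + PBS. For C1qa, C1qb and Tmem119 the main protein-coding transcript was in both lists, and so were a protein-coding and a noncoding transcript of C1qc. For Trem2, the only transcript in both lists was a form that retains an intron (ENSMUST00000132340). Of its 2 protein-coding transcripts, ENSMUST00000113237 was in list A alone, at 0 in all 4 libraries, and ENSMUST00000024791 had no row used here. Csf1r was not analysed here.
Tyrobp and Aif1 had rows in list A alone. The Tyrobp row was a transcript annotated for nonsense-mediated decay, and the 2 Aif1 rows were a protein-coding transcript and a retained intron form. Each of the 3 was listed at 0 in the 4 libraries. A count of 0 allowed up to 1.50 to 1.53 FPKM for the Tyrobp transcript and up to 1.81 to 1.85 and 1.11 to 1.14 FPKM for the Aif1 transcripts (3 fragments, counting error only). P2ry12 had a different protein-coding transcript in each list, at 0 in 5 libraries and at 1 fragment (0.0961 FPKM) in NMDA + PBS replicate 3. These zeros, with that of the Trem2 transcript, concern the listed transcripts only. No statement on the level of Tyrobp, Aif1, P2ry12 or protein-coding Trem2 RNA follows from them.

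**Figure D1:**
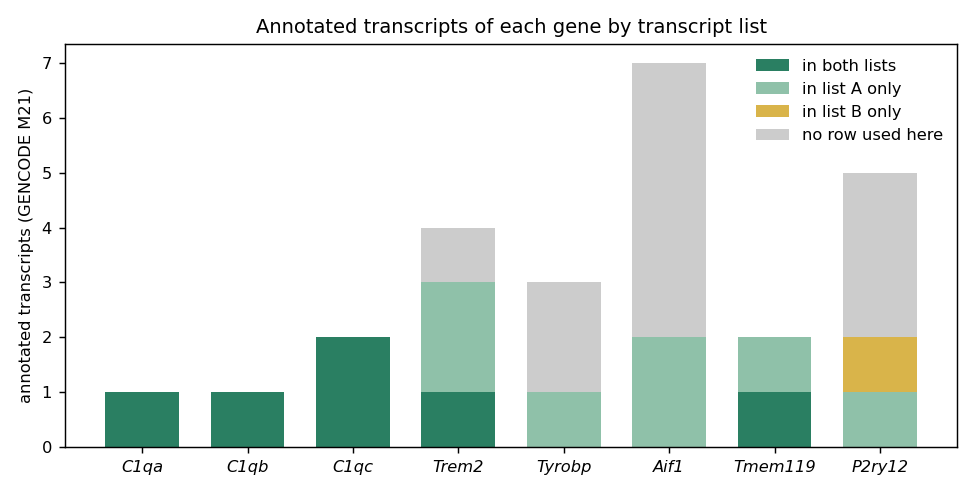
Number of transcripts annotated for 8 of the genes in GENCODE M21 (vertical axis), divided into those in both transcript lists, in list A only, in list B only and without a row used here. Of the 25 annotated transcripts, 6 were in both lists, and C1qa, C1qb and C1qc were the genes with every transcript in both.

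C1qa, which encodes the A chain, had the highest mean of the 5 measured genes, close to that of C1qb. Its level was 72.3, 155.0 and 16.7 FPKM in replicates 1, 2 and 3 of NMDA + PBS, and 109.4, 142.0 and 153.5 FPKM in those of NMDA + SCF. NMDA + PBS replicate 2 was the highest of the 6 libraries and NMDA + PBS replicate 3 the lowest, so the groups overlapped. These values rest on 77 to 641 fragments, and the 95% Poisson intervals of the 3 NMDA + PBS libraries, 63.7 to 81.7, 143 to 167 and 13.2 to 20.8 FPKM, did not touch. The group means were 81.3 ± 69.6 FPKM (SD, n = 3) and 135.0 ± 22.8 FPKM (SD, n = 3). The log2 fold change of NMDA + SCF over NMDA + PBS on the log2(FPKM + 1) scale was 1.20 ± 0.71 (SE), with a 95% interval from -0.46 to 2.86 and an adjusted p of 0.596 (limma, Benjamini-Hochberg over 25202 genes). The two-sided exact permutation test gave p = 0.4, where 0.1 is the smallest p that 3 against 3 libraries allow.

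C1qb, which encodes the B chain, followed the same library order at its lower end. Its level was 61.6, 122.0 and 16.6 FPKM in replicates 1, 2 and 3 of NMDA + PBS, and 97.9, 145.8 and 136.6 FPKM in those of NMDA + SCF. NMDA + PBS replicates 1 and 3 were below every NMDA + SCF library, and NMDA + PBS replicate 2 was above NMDA + SCF replicate 1. The group means were 66.7 ± 52.9 and 126.8 ± 25.4 FPKM (SD, n = 3 each). The log2 fold change was 1.30 ± 0.64 (SE), with a 95% interval from -0.21 to 2.80, an adjusted p of 0.545 by limma and an exact permutation p of 0.2.
C1qa and C1qb kept nearly the same proportion to each other. The ratio of C1qa to C1qb was 1.17, 1.27 and 1.01 in replicates 1, 2 and 3 of NMDA + PBS and 1.12, 0.974 and 1.12 in those of NMDA + SCF, whereas C1qa itself differed by 9.29 times between the highest and lowest NMDA + PBS library. The pair could not be ordered by level beyond this spread.

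C1qc, which encodes the C chain, was at or near 0 in every library. The sum of its 2 transcripts was 0, 0.475 and 0.476 FPKM in replicates 1, 2 and 3 of NMDA + PBS and 0.617, 0 and 0.546 FPKM in those of NMDA + SCF. No library had over 2 fragments, so no difference was detectable at these counts. The log2 fold change of 0.07 ± 0.26 (SE) changed sign without NMDA + PBS replicate 1. C1qc took at most 1.41% of the summed FPKM of the C1q genes in a library, against 49.3 to 55.9% for C1qa. The cause of this gap between neighbouring genes whose chains join in equal parts was not tested, and it concerns the counted fragments of the listed transcripts.

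Tmem119, which marks resident microglia against blood-derived macrophages, was the third most abundant of the measured genes. Its level was 6.16, 13.3 and 2.21 FPKM in replicates 1, 2 and 3 of NMDA + PBS, and 11.3, 9.87 and 11.2 FPKM in those of NMDA + SCF (22 to 119 fragments). As for C1qa, NMDA + PBS replicates 2 and 3 were the highest and the lowest of the 6 libraries. The group means were 7.24 ± 5.65 and 10.8 ± 0.81 FPKM (SD, n = 3 each). The log2 fold change was 0.77 ± 0.50 (SE), with a 95% interval from -0.41 to 1.95, an adjusted p of 0.634 by limma and an exact permutation p of 0.4. Tmem119 amounted to 3.43 to 6.65% of the summed FPKM of C1qa and C1qb, and it was below both in all 6 libraries.

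Trem2, the receptor that senses lipids and debris, could be followed only through its intron-retaining transcript. This stood at 0.0614, 0.420 and 0.0471 FPKM in replicates 1, 2 and 3 of NMDA + PBS and at 0.305, 1.02 and 0.725 FPKM in those of NMDA + SCF. The counts behind these values were 1, 8 and 1 fragments and 5, 17 and 12 fragments. NMDA + PBS replicate 2 lay above NMDA + SCF replicate 1, so the groups overlapped here too. The log2 fold change was 0.51 ± 0.23 (SE), with a 95% interval from -0.04 to 1.06, an adjusted p of 0.540 by limma and an exact permutation p of 0.2. On recovered fragments (limma-voom) it was 2.17, with an adjusted p of 0.474, since log2(FPKM + 1) understates changes at such low levels. The mean over the 6 libraries was 0.430 FPKM for Trem2 and 0.352 FPKM for C1qc, and this pair could not be ordered beyond the spread of the libraries.

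**Figure D2:**
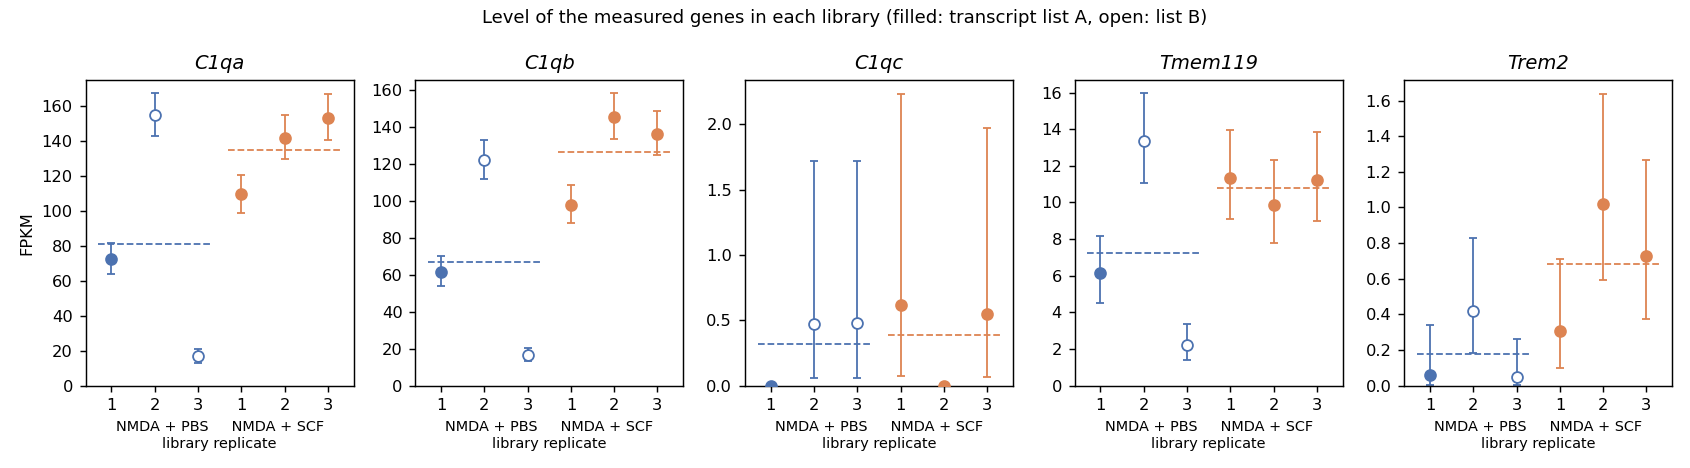
FPKM (vertical axes, each from 0) of C1qa, C1qb, C1qc, Tmem119 and Trem2 in the 6 libraries, with exact 95% Poisson intervals of the fragment counts (none drawn at 0 fragments) and dashed group means. In C1qa, C1qb and Tmem119, NMDA + PBS replicate 3 is the lowest library, and the NMDA + SCF libraries lie close together.

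None of the 5 genes passed an adjusted p of 0.05 by limma, and none passed the study's thresholds (fold change 2, adjusted p 0.001). Over all 25202 genes 0.0% passed the former and 0.0% the latter. The study's thresholds were applied here to the limma fit only. The study reported differentially expressed genes at them from its own analysis, which was not repeated here. At an unadjusted p of 0.05, limma called 0 of the 5 genes and 2324 of all genes (9.22%), while limma-voom called 2 of the 5, C1qb and Trem2, and 9.99% of all genes. The fold changes of the 5 genes were all above 0, as were those of 49.1% of all genes, and no gene of the 5 had groups that did not overlap, against 14.1% of all genes. Tested as single transcripts, the 6 transcripts in both lists gave log2 fold changes from 0.01 for the protein-coding C1qc transcript to 1.30 for C1qb, with adjusted p-values of at least 0.593 by limma, and 0.0% of 45261 transcripts passed. At an unadjusted p of 0.05, 0 of the 6 transcripts and 7.98% of all transcripts passed. The replicate block called 1 of the 5 genes (Trem2) at an unadjusted p of 0.05, against 7.36% of all genes. In RNA of a whole retina, a change in microglia number and a change of these RNAs per cell cannot be told apart.

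The size of the difference rested on NMDA + PBS replicates 2 and 3. Without replicate 3, the log2 fold change was 0.33 for C1qa, 0.52 for C1qb and 0.22 for Tmem119. Without replicate 2, it was 1.90, 1.93 and 1.30, the unadjusted p of 4 of the 5 genes was under 0.05 (7.99% of all genes in that fit; without NMDA + SCF replicate 1 it was 1, Trem2, against 5.5%), and their adjusted p-values by limma were 0.540 to 0.610. Each fold change except that of C1qc kept its sign in all 6 fits with 1 library left out. No NMDA + SCF library uses list B, so list and group are confounded in part. Within list A, where NMDA + PBS replicate 1 stands alone against the 3 NMDA + SCF libraries, the log2 difference was 0.88 for C1qa, 1.01 for C1qb, 0.72 for Tmem119, 0.64 for Trem2 and 0.44 for C1qc, values without a replicate check.

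**Figure D3:**
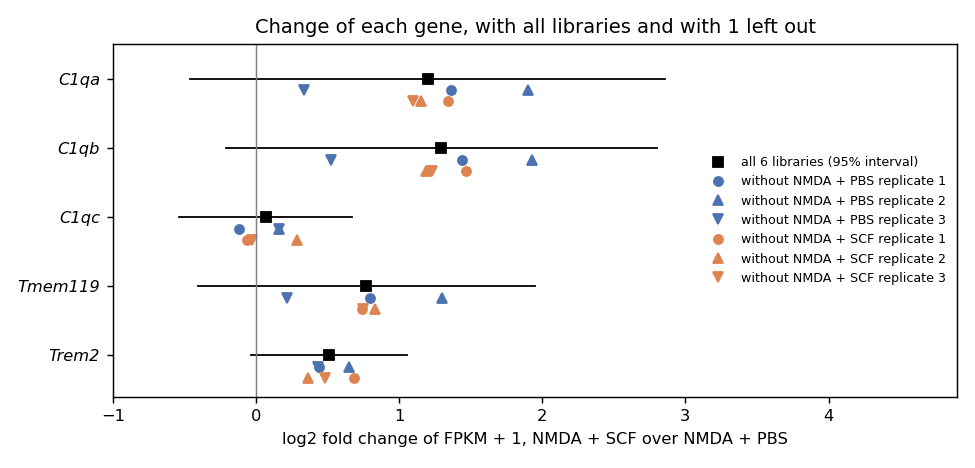
Log2 fold change of NMDA + SCF over NMDA + PBS on the log2(FPKM + 1) scale (horizontal axis) for the 5 measured genes. Squares and lines give the fit of all 6 libraries with its 95% interval, and small symbols give the fits with 1 library left out. All 5 intervals include 0, and leaving out NMDA + PBS replicate 2 or 3 moves C1qa, C1qb and Tmem119 the most.

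The spread among the NMDA + PBS libraries was wide for these genes. The highest library stood above the lowest by 9.29 times for C1qa, 7.37 times for C1qb and 6.04 times for Tmem119 in the NMDA + PBS group, and by 1.40, 1.49 and 1.15 times in the NMDA + SCF group. Those extremes were NMDA + PBS replicates 2 and 3, which share transcript list B. Of 14013 genes with a mean of at least 1 FPKM, 0.864% had a ratio of replicate 2 to replicate 3 as large as that of C1qa, 1.38% as large as that of C1qb and 1.91% as large as that of Tmem119, and the median ratio was 1.09. NMDA + PBS replicate 3 had the most clean reads (48783182, against at least 44925938 in the others), the lowest percent of bases of quality 30 or more (92.9%, against 93.7 to 94.3%) and the most fragments on named transcripts (3742303, against 2826013 to 3354888). Whether these bear on the low values of C1qa, C1qb and Tmem119 was not tested.

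Other genes of the same cells and pathways were described from lists, without a test of a list. The list of complement outside C1q holds other components, regulators and receptors of the cascade. Of the 21 listed, 15 were measured. The fold change was above 0 for 12 and below 0 for 3, with a median log2 fold change of 0.39, against -0.01 over all genes tested. None passed an adjusted p of 0.05 by limma, and none passed an unadjusted p of 0.05. C3, the central component that all activation routes converge on, stood at 0.972, 26.2 and 3.24 FPKM in replicates 1, 2 and 3 of NMDA + PBS and at 7.44, 9.90 and 12.4 FPKM in those of NMDA + SCF (log2 fold change 0.81 ± 0.87, adjusted p = 0.743 by limma). As for C1qa, NMDA + PBS replicate 2 was its highest library, but the lowest was NMDA + PBS replicate 1. Clu, a chaperone that also inhibits complement and is made by several retinal cell types, stood at 1288, 2244 and 717 FPKM and at 2026, 2436 and 2802 FPKM (0.91 ± 0.43, adjusted p = 0.545 by limma). Serping1, the C1 inhibitor, had a fold change of 0.71 ± 0.39 on the log2 scale from at most 7 fragments.

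In the TREM2 and TYROBP pathway, all 17 listed genes were measured, 9 with a fold change above 0 and 8 below, with a median of 0.01. Bcl10, an adaptor of the CARD9 signaling complex, was higher in every NMDA + SCF library (52.7 to 59.0 FPKM) than in the NMDA + PBS libraries (31.6 to 47.1 FPKM), and its unadjusted p was 0.0437 and its adjusted p 0.536 by limma. Of the 10 ligands of CSF1R and myeloid transcription factors, 7 were above 0 and 3 below, with a median of 0.11. Spi1, which encodes PU.1, stood at 1.78, 6.51 and 0.332 FPKM in replicates 1, 2 and 3 of NMDA + PBS and at 4.40, 2.73 and 4.40 FPKM in those of NMDA + SCF. Irf8, the partner of PU.1 in microglia, stood at 1.86, 3.43 and 1.11 FPKM and at 3.94, 4.24 and 3.86 FPKM. The groups of Irf8 did not overlap, and its adjusted p was 0.542 by limma.

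Genes of homeostatic microglia gave a mixed picture. Of 15 measured, 6 had a fold change above 0 and 9 below, with a median of -0.06. Cst3, which encodes cystatin C, stood at 18.6 FPKM in NMDA + PBS replicate 1, at 303.2 and 350 FPKM in replicates 2 and 3, and at 25.4 to 39.4 FPKM in the NMDA + SCF libraries, a split that followed the transcript list and not the group. Cx3cr1, the fractalkine receptor that defines microglia in many studies, had at most 1 fragment in any library over its transcripts in both lists. Fcrls, another gene of the list, stood at 3.49, 12.2 and 0.793 FPKM in replicates 1, 2 and 3 of NMDA + PBS. In those of NMDA + SCF it stood at 5.14, 9.23 and 9.8 FPKM (log2 fold change 0.89 ± 0.68, adjusted p = 0.688 by limma). P2ry13 had 20 to 47 fragments and a fold change below 0 (-0.18 ± 0.33 on the log2 scale, adjusted p = 0.859 by limma). Sall1, a transcription factor specific to microglia in the brain that is also found in other retinal cells, was at 1.28 to 2.58 FPKM and at 2.78 to 3.57 FPKM, with an adjusted p of 0.567 by limma.

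Of 20 measured genes of disease-associated microglia, 15 had a fold change above 0 and 5 below, with a median of 0.30. Ctsz, a lysosomal protease, was higher in every NMDA + SCF library (187 to 216 FPKM) than in the NMDA + PBS libraries (150.0, 149.2 and 69.2 FPKM in replicates 1, 2 and 3), and its log2 fold change was 0.81 ± 0.31 with an unadjusted p of 0.0357 and an adjusted p of 0.536 by limma. Fth1, the heavy chain of ferritin, was the most abundant gene of the list and had its lowest value, 1696 FPKM, in NMDA + PBS replicate 3. Ctsb, another lysosomal protease, was also lowest there, at 220.2 FPKM against 328.0 to 375.2 FPKM elsewhere. Ctsd, a lysosomal protease with at most 10 fragments in a library, had a fold change below 0, at 3.53, 0.851 and 2.88 FPKM in replicates 1, 2 and 3 of NMDA + PBS and 0.768, 1.65 and 0.408 FPKM in those of NMDA + SCF (log2 fold change -0.77 ± 0.45, adjusted p = 0.596 by limma). Of 16 measured genes of myeloid cells in general, 10 were above 0 and 6 below, with a median of 0.05. Ly86, a partner of a Toll-like receptor family member, stood at 14.5, 29.9 and 2.98 FPKM in replicates 1, 2 and 3 of NMDA + PBS and at 20.3, 26.5 and 30.9 FPKM in those of NMDA + SCF. Laptm5, a lysosomal membrane protein of blood and myeloid cells, stood at 4.86, 11.9 and 2.61 FPKM and at 7.58, 8.40 and 11.4 FPKM. Both genes repeated the order of C1qa in the NMDA + PBS libraries. Fcer1g, a signaling chain of Fc receptors with at most 7 fragments, had the smallest p of its list and a fold change below 0, at 2.58, 2.60 and 1.32 FPKM and at 0.427, 1.68 and 0.847 FPKM (-0.69 ± 0.38 on the log2 scale, adjusted p = 0.567 by limma).

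**Figure D4:**
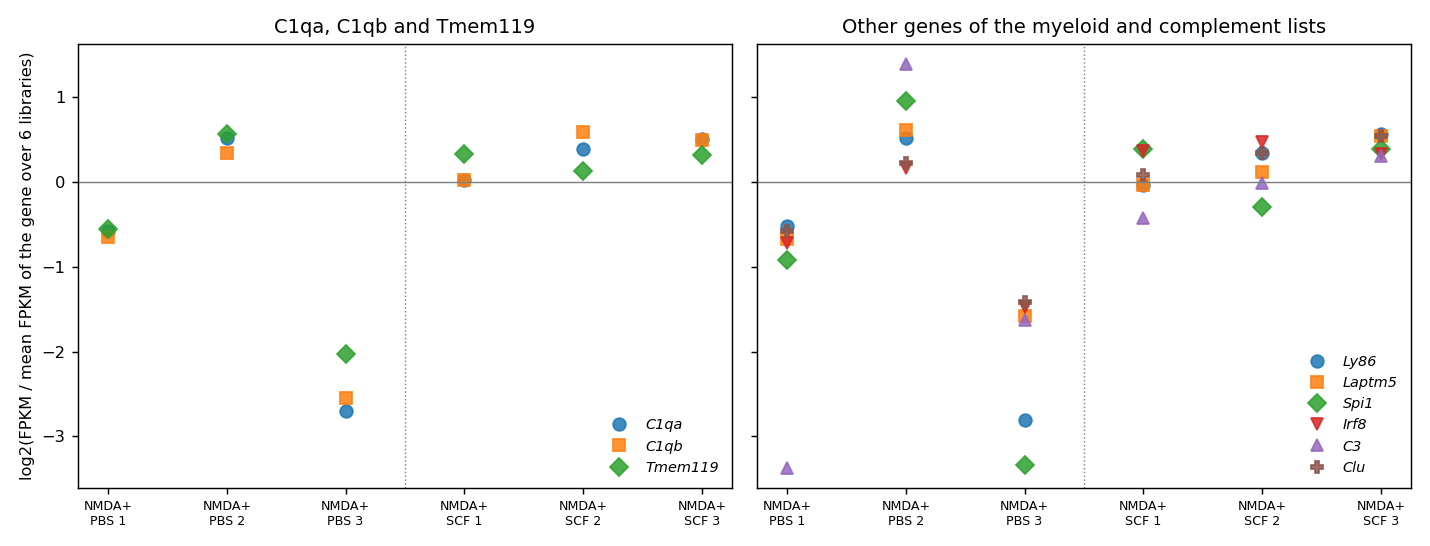
Log2 of FPKM over the gene's own mean of the 6 libraries (vertical axis) for C1qa, C1qb and Tmem119 (left) and for 6 genes of the other lists (right), by library. NMDA + PBS replicate 3 is lowest for C1qa, C1qb, Tmem119, Ly86, Laptm5, Spi1, Irf8 and Clu, while the lowest value of C3 is in NMDA + PBS replicate 1.

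Across the 6 lists, 88 of 102 genes were measured, 55 with a fold change above 0 and 33 below, with a median of 0.10. With 1 library left out this median ranged from -0.02, without NMDA + PBS replicate 3, to 0.23, without NMDA + PBS replicate 2. Without NMDA + PBS replicate 3 the median was 0.12 for complement outside C1q and 0.03 for disease-associated microglia. At an unadjusted p of 0.05, 2 of the 88 were called, Bcl10 and Ctsz, both higher after SCF, against 4.33% of all genes that were called and higher, and 5 had higher values in all NMDA + SCF libraries than in any NMDA + PBS library, against 7.63% of all genes. Neither share stood above that of all genes. The library pattern was more frequent in these lists than over all genes. Of the 56 list genes with a mean of at least 1 FPKM, 64.3% had their lowest value in NMDA + PBS replicate 3, 39.3% their highest in NMDA + PBS replicate 2 and 26.8% both. The shares over 14013 genes were 28.9%, 18.2% and 3.49%. These shares are a description, since genes of one cell type are not independent of each other.

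The genes most like C1q over the 6 libraries were named by Pearson's r with the mean log2(FPKM + 1) of the C1q genes, as a description over libraries that share groups and transcript lists. The 10 highest of 10906 genes with a mean of at least 2 FPKM were Jdp2, Mir1291 (ENSMUSG00000106463), Zbtb4, Psd, Dtx3, Smarcd3, Ifitm3, Ly86, Tgfb1 and Col5a3, with r from 0.989 to 0.994. Among them, Ifitm3, an interferon-induced membrane protein, stood at 104, 247 and 39.5 FPKM in replicates 1, 2 and 3 of NMDA + PBS and at 161, 231 and 268 FPKM in those of NMDA + SCF. Psd, a gene of neurons, spanned only 36.3 to 59.2 FPKM, so a high r did not require a wide range. In all, 489 genes (4.48%) had an r over 0.9. Tmem119 had an r of 0.987 and Trem2 of 0.745. C1qc, with at most 2 fragments in a library, had an r of 0.05 with the mean it is part of. That mean was therefore mainly the profile of C1qa (r of 0.992) and C1qb (r of 0.987).

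Genes of inflammatory signaling and of other cells were listed beside the C1q genes. Of 12 measured cytokine and chemokine genes, 6 were above 0 and 6 below. At an unadjusted p of 0.05, 2 were called, Il1b and Ptgs2, both lower, against 4.9% of all genes, and 2 were lower without overlap, Ptgs2 and Nos2 (the latter from at most 2 fragments), against 6.45%. Il1b, which encodes interleukin 1β, stood at 0.433, 2.04 and 2.65 FPKM in replicates 1, 2 and 3 of NMDA + PBS. In those of NMDA + SCF it stood at 0, 0 and 0.633 FPKM. It had at most 15 fragments, with an unadjusted p of 0.0331 and an adjusted p of 0.536 by limma. NMDA + PBS replicate 1, in transcript list A, lay within the NMDA + SCF range, so the higher values were those of the list B libraries. Ptgs2, which encodes cyclooxygenase 2, was lower in all NMDA + SCF libraries (0.0655 to 0.323 FPKM) than in the NMDA + PBS libraries (0.462 to 1.58 FPKM), also with an adjusted p of 0.536. Tgfb1, which encodes the cytokine TGF-β1, had a fold change above 0, at 4.17, 7.38 and 1.97 FPKM and at 6.58, 8.19 and 8.22 FPKM, with an adjusted p of 0.548.
Markers of macrophages at the borders of the tissue summed to 13.1 to 18.5 FPKM in the NMDA + PBS and 14.5 to 19.6 FPKM in the NMDA + SCF libraries over 5 of 7 genes, of which Lyve1 gave 11.7 to 14.7 and 13.4 to 17.9 FPKM. Mrc1 and Stab1 were highest in NMDA + PBS replicate 2, at 1.97 FPKM (42 fragments) and 1.82 FPKM (58 fragments), where C1qa was highest too. Lyve1, the most abundant gene of the list, was highest in NMDA + SCF replicate 2, at 17.9 FPKM. Cd163 and F13a1 had at most 3 fragments, and none in NMDA + PBS replicate 2. Those of infiltrating leukocytes summed to 0.145 to 1.19 and to 0.186 to 1.22 FPKM over 4 of 10 genes, and Ccr2, Ly6c2 and Cd3e had at most 4 fragments in any library. Cd4, the fourth of them, reached 12 fragments (1.11 FPKM) in NMDA + SCF replicate 2, and its log2 fold change was 0.36 ± 0.26 (limma, adjusted p = 0.675). Erythroid genes summed to 26.4 to 49.8 and to 47.5 to 235.5 FPKM over 3 of 5 genes, with the lowest sum in NMDA + PBS replicate 3. Lens genes summed to 24.2 to 308.7 and to 462 to 9867 FPKM over 9 of 10 genes. Within NMDA + SCF the erythroid sums of replicates 1, 2 and 3 were 47.5, 111.1 and 235.5 FPKM. This was the order of C1qa there, but not that of C1qb, Tmem119 or Trem2. In NMDA + PBS the erythroid sums were 49.8, 38.6 and 26.4 FPKM, highest in replicate 1, while C1qa was highest in replicate 2. The lens sums of NMDA + SCF were 5115, 462 and 9867 FPKM, another order. The part of erythroid and lens genes in the values of the C1q genes was not tested. Müller glia and astrocyte genes summed to 3341 to 4150 and to 3337 to 3559 FPKM over 9 of 10 genes. Dkk3, a secreted protein of Müller glia, gave 980 and 1007 FPKM of this in NMDA + PBS replicates 2 and 3 and at most 0.262 FPKM in the libraries of list A, and without it the sums were 4149, 2361 and 2362 FPKM in replicates 1, 2 and 3 of NMDA + PBS and 3425, 3559 and 3337 FPKM in those of NMDA + SCF. Gfap, the filament protein of reactive glia, stood at 46.5, 261 and 32.3 FPKM and at 86.3, 182 and 160 FPKM. It was highest in NMDA + PBS replicate 2 and lowest in replicate 3. Of the 9 measured genes of this list, 2 were highest in that replicate 2, 4 were lowest in that replicate 3, and 1, Gfap, was both. Glul, the most abundant of them, was highest in NMDA + PBS replicate 1, at 3899 FPKM.

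**Figure D5:**
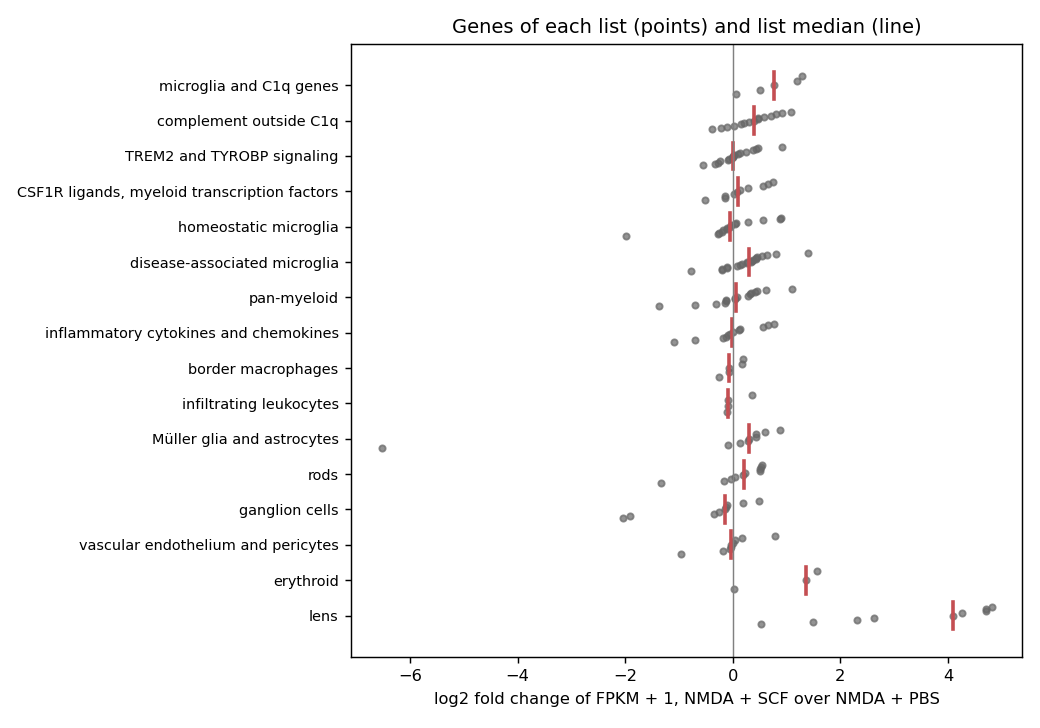
Log2 fold change of NMDA + SCF over NMDA + PBS on the log2(FPKM + 1) scale (horizontal axis) of each measured gene of the 16 lists (points), with the list median (lines). The medians of the lists of microglia and complement genes lie between -0.06 and 0.77, and the erythroid and lens lists lie farther to the right.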

How the data were processed

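The authors sequenced oligo (dT)-enriched RNA of 6 retinal libraries, 3 each of NMDA + PBS and NMDA + SCF. The authors deposited FPKM values per transcript for each library, and a table of library totals from which clean reads and the percent of bases at quality 30 or above were taken, while its other 5 columns were not used. The aligner and the counter are not given in the sources used here. The submitters' notes name mm9, but 98.2% of 63313 transcript positions equal GENCODE M21 (GRCm38), which is used here. The FPKM of the 46933 Ensembl transcripts present in both lists was added up for each gene and tested as log2(FPKM + 1) with limma 3.58.1 (R 4.3.3, variance trend, condition only), without a filter except for genes at 0 throughout. FPKM times transcript length gave whole fragments (within 0.05 of a fragment or the file's rounding) for 98.4 to 98.5% of values. These fragments served for Poisson intervals, for the floor of 3 fragments and for limma-voom, and cover counting error only. Transcripts of a merged assembly, 8.85 to 11.4% of the FPKM, carry no gene name and were left out. The fit was tried on simulated data with independent noise for each gene. The simulation held no transcript lists and no shifts shared by genes of a library. The genes and lists were chosen with earlier results of the deposited data known. Named were the 9 genes, up to 4 genes a list (the 2 of highest mean FPKM and the 2 of smallest p), genes a count turned on and the 10 genes most like C1q. Cx3cr1, Fcrls, P2ry13, Gfap, Nos2, F13a1, Mrc1, Ccr2 and the promoter motif were added after their values or sequences were seen. Rods, ganglion cell and vascular genes had medians of 0.20, -0.14 and -0.02 on the log2 scale. Alternatives were other scalings, filters, pseudocounts, transcripts, a list term, a replicate block, limma-voom and each library left out. Tables were made with Python 3.11.15. Some results for single genes are not used here.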

Additional observations from a re-analysis of the deposited data

How the results depend on the processing

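No gene passed an adjusted p of 0.05 over all 6 libraries, and the count was 2324 at an unadjusted p of 0.05, 2 with limma-voom on recovered fragments and 53 with the transcript list as a term. With 1 library left out it ranged from 0 to 909, and the 909 came without NMDA + PBS replicate 1, the fit in which list and group coincide. In the same fits the count at fold change 2 with adjusted p 0.001 ranged from 0 to 191, and that of the listed genes called at an adjusted p of 0.05 from 0 to 5. C1qa, C1qb and Tmem119 were not called at an adjusted p of 0.05 under any of the 14 alternatives, nor were C1qc and Trem2 under the 13 that kept them (the filter at a mean of 1 FPKM removed both). Of these genes, 0 passed an unadjusted p of 0.05 in the fit of all libraries, 4 without NMDA + PBS replicate 2, 2 with limma-voom, and 1 each with the replicate block and without NMDA + SCF replicate 1. C1qa, C1qb, Trem2 and Tmem119 kept their sign in all of these. C1qc reversed to -0.12 without NMDA + PBS replicate 1, to -0.06 without NMDA + SCF replicate 1 and to -0.03 without NMDA + SCF replicate 3, its highest value with 1 library left out was 0.29, without NMDA + SCF replicate 2, and it was 0.44 with the transcript list as a term. Its protein-coding transcript reversed to -0.03 without NMDA + PBS replicate 1 or 3 and to -0.091 without NMDA + SCF replicate 3, with 0.10 as the highest value with 1 library left out, and its noncoding transcript to -0.092 without NMDA + PBS replicate 1 and to -0.11 without NMDA + SCF replicate 1, with 0.24 as the highest such value. These rest on at most 2 fragments.

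Libraries with the same replicate number share only a number, with correlations of their deviations of -0.04, -0.04 and -0.06. With the replicate block, 1856 genes (7.36%) passed an unadjusted p of 0.05 against 2324 without it, and the adjusted p was 0.674 for C1qa, 0.658 for C1qb, 0.658 for Trem2 and 0.707 for Tmem119. Few counted fragments limit C1qc and Trem2, and the transcript lists limit Trem2, Tyrobp, Aif1 and P2ry12.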
